A study of Mus musculus with 6 samples.

Results

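Calcium pumps are ATPases that move calcium out of the cytosol. The genes described here are the 3 SERCA pumps of the endoplasmic reticulum (Atp2a1, Atp2a2, Atp2a3), the 4 PMCA pumps of the plasma membrane (Atp2b1, Atp2b2, Atp2b3, Atp2b4), the SPCA pumps of the Golgi and secretory pathway (Atp2c1 and Atp2c2), and Orai1, the pore subunit of the store-operated calcium channel. They were chosen by symbol, as the probe sets annotated to exactly 1 of these 10 genes. Where a gene has several probe sets, the one with the highest mean over the 6 arrays is taken, but each of the 10 genes had a single probe set, so the measured values chose nothing here. The 10 genes stand among 22180 tested. The gene family itself was picked with the knockout against wild-type results of these arrays known, so the number of its members that differ is a description and not independent evidence about calcium pumps.

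The arrays compare 3 samples of SLK-knockout cells with 3 samples of SLK wild-type cells. Both groups are untreated mouse cells that carry NeuNDL, a mutant and active Neu (ErbB2) receptor tyrosine kinase, and were grown in serum with a mammary epithelial growth supplement. The kinase SLK, of the Ste20 group, is known for its work in cell movement and at focal adhesions. The series names independent samples from passages 9, 19 and 29, but no label ties a passage, clone or animal to an array, so the p-values measure the spread between these samples, which may be technical. The promoter of the transgene, the deleted part of Slk and whether a line is 1 clone are not stated in the labels. Array medians lay between 3.93 and 3.97 on the log2 scale, and the correlation between arrays over all probe sets ran from 0.990 to 0.994 (Pearson). Slk itself read 7.14, 7.21 and 7.20 in knockout cells, against 8.21, 8.30 and 8.34 in wild-type cells, so the signal fell by 1.10 log2 units (SE 0.06, adjusted p = 0.0021). Of the 8 luminal marker genes, named after their values were seen, Krt8 and Krt18 were brighter on these arrays than 99.0% and 99.3% of genes, while Esr1, Krt19 and Foxa1 were dim, above 47.1%, 35.5% and 34.8% of genes.

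The pumps work on the same ion in different places. SERCA pumps fill the endoplasmic reticulum, from which calcium is released during signalling, PMCA pumps expel calcium across the plasma membrane, and SPCA pumps load the Golgi with calcium and manganese. In the mammary gland the plasma membrane pump Atp2b2 (PMCA2) delivers calcium into milk at the apical membrane, and the SPCA2 protein encoded by Atp2c2 increases in lactation. In human breast cancer cells SPCA2 is known to bind and activate Orai1 independently of calcium stores.

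In knockout cells 2 of the 10 genes rose, the secretory pathway pump Atp2c2 (1.71-fold) and the plasma membrane pump Atp2b4 (1.64-fold), and none fell (limma with Benjamini-Hochberg adjustment over all genes, threshold 0.05). The same rule called 0.437% of all genes tested, with 0.325% higher and 0.113% lower in knockout cells. The other 8 genes, among them the bright pumps Atp2a2, Atp2b1 and Atp2c1, had log2 fold changes between -0.14 and 0.20, and none of these had an unadjusted p under 0.05. The median change of the 10 genes was 0.04, against 0.0038 for all genes tested. In these cultures fewer cells of a type and less RNA per cell cannot be told apart.

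**Figure D1:**
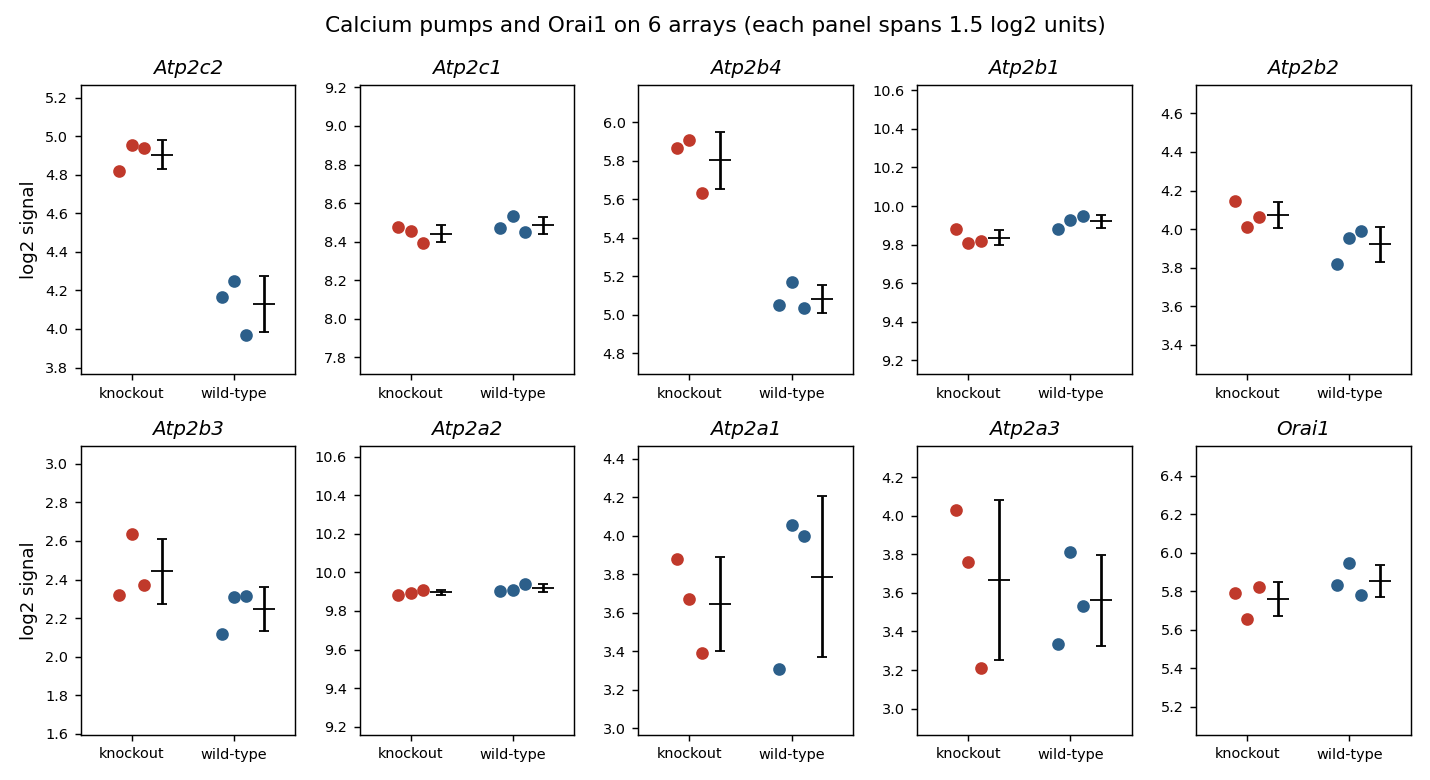
Log2 signal (vertical axis) of each calcium pump gene and Orai1 on the 3 knockout arrays (red) and the 3 wild-type arrays (blue), with the mean and SD of each group in black. Every panel spans the same range of log2 units, and the knockout points lie clear of the wild-type points by the widest margin in the Atp2c2 and Atp2b4 panels.

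Promoter sequences are shown for Atp2b4, the plasma membrane pump gene that rose, and for its paralog Atp2b1, which did not pass the test, because they differ visibly in CG content. The RefSeq table (GRCm38.p6) held windows for 7 of the 10 genes, each running from 250 bases before to 50 bases after an annotated start. It lists none for Atp2c2, Atp2a2 or Atp2b3. The Atp2b4 window is chr1:133753698-133753997 on the minus strand and the first of the Atp2b1 windows is chr10:98914392-98914691 on the plus strand. Both are printed 5′ to 3′ with each CG dinucleotide in capitals.
Atp2b4: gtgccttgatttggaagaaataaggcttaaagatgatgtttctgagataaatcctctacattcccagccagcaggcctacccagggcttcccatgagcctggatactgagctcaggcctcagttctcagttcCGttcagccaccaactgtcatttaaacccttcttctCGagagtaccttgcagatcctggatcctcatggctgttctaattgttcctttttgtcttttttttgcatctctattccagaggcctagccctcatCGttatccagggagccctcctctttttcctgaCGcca
Atp2b1: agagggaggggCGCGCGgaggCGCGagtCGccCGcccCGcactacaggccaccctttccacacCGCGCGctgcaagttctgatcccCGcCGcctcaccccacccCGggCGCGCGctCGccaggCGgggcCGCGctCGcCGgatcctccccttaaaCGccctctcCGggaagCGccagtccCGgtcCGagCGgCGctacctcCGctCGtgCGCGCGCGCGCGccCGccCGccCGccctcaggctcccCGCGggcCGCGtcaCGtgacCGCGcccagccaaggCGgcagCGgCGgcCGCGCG
The Atp2b4 window held 4 CG dinucleotides and 47.7% G or C, and 38.0% of the 32851 windows of all genes held no more CG than that. The Atp2b1 window held 54 CG dinucleotides and 79.3% G or C, a CG number that 99.7% of windows do not exceed. The GC box GGGCGG, searched on both strands and itself containing a CG, was absent from the Atp2b4 window, present 4 times in the Atp2b1 window, and present in 35.7% of all windows. Neither window held TATAAA (13.6% of all windows) or CCAAT (37.4%), each searched on both strands. The second Atp2b1 window held 45 CG dinucleotides. The window of Atp2a1, a gene that did not pass the test, held 4, as many as that of Atp2b4. Whether CG content goes with the change in knockout cells was not tested. These letters describe the annotated windows, and the start sites used in these cells were not measured.

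Among the SPCA pumps, Atp2c2 rose and Atp2c1 did not pass the test. Atp2c2, the pump with restricted expression in secretory epithelia, read 4.82, 4.96 and 4.94 in knockout cells, against 4.17, 4.25 and 3.97 in wild-type cells. The lowest knockout array lay above the highest wild-type array. The means were 4.90 ± 0.08 in knockout cells and 4.13 ± 0.14 in wild-type cells (SD, n = 3 each), which differ by 0.77 log2 units (SE 0.09, 95% interval 0.57 to 0.98, adjusted p = 0.0248). Its probe set was of middling brightness, above 55.2% of genes in knockout cells and 46.4% in wild-type cells. Such percentages say how far from the dim end of the arrays a probe set was read, and do not rank mRNA levels between genes. Atp2c1, which encodes the widely expressed SPCA1, read 8.48, 8.46 and 8.39 in knockout cells, against 8.47, 8.53 and 8.45 in wild-type cells. These groups overlapped, and the log2 fold change was -0.04 with a 95% interval of -0.17 to 0.08 (adjusted p = 0.832).

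Among the PMCA pumps, Atp2b4 was the one past the threshold. Atp2b4, which encodes the broadly expressed PMCA4, read 5.87, 5.91 and 5.63 in knockout cells, against 5.05, 5.17 and 5.04 in wild-type cells. All knockout arrays were above all wild-type arrays, and knockout array 3 was the lowest of its group. The means were 5.80 ± 0.15 in knockout cells and 5.08 ± 0.07 in wild-type cells (SD, n = 3 each), which differ by 0.72 log2 units (SE 0.09, 95% interval 0.51 to 0.92, adjusted p = 0.0328). Atp2b1 encodes PMCA1, regarded as the housekeeping pump of the plasma membrane, and read 9.88, 9.81 and 9.82 in knockout cells, against 9.88, 9.93 and 9.95 in wild-type cells. The knockout arrays lay just below the wild-type arrays without overlap, by a log2 fold change of -0.08 (95% interval -0.20 to 0.04, adjusted p = 0.646).

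The lactation pump Atp2b2 read 4.15, 4.01 and 4.06 in knockout cells, against 3.82, 3.95 and 3.99 in wild-type cells. The groups did not overlap, but the log2 fold change of 0.15 (95% interval -0.01 to 0.32) did not pass the test (adjusted p = 0.511). Atp2b3, a PMCA pump known mainly from neurons, had a dim probe set, above 13.4% of genes in knockout cells and 10.7% in wild-type cells. It read 2.32, 2.64 and 2.37 in knockout cells, against 2.12, 2.31 and 2.32 in wild-type cells, a log2 fold change of 0.20 (95% interval -0.05 to 0.44, adjusted p = 0.585). The groups did not overlap, but the gap between them was smaller than the spread within either. In all, 5 of the 10 genes had groups that did not overlap, while 16.9% of all genes tested had such groups, 8.79% with knockout above (4 of the 10 genes) and 8.1% with knockout below (Atp2b1).

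Among the SERCA pumps no gene passed the test. Atp2a2 encodes SERCA2, the widespread pump of the endoplasmic reticulum, and read 9.88, 9.89 and 9.91 in knockout cells, against 9.91, 9.91 and 9.94 in wild-type cells. The groups overlapped, and the 95% interval of its log2 fold change, -0.13 to 0.09 around -0.02, was the narrowest of the 10 genes. Atp2a1, the pump of fast skeletal muscle, read 3.878, 3.669 and 3.391 in knockout cells, against 3.309, 4.057 and 3.998 in wild-type cells. Atp2a3, a SERCA pump known from blood and epithelial cells, read 4.03, 3.76 and 3.21 in knockout cells, against 3.34, 3.81 and 3.53 in wild-type cells. Both were dim and varied within a group by up to 0.75 and 0.82 log2 units, more than any other of the 10 genes. Their 95% intervals, -0.67 to 0.39 for Atp2a1 and -0.42 to 0.63 for Atp2a3, were the widest of the 10 genes, and a change within them was not detectable at this precision. The sign of the Atp2a3 change turned when knockout array 1 (-0.08) or wild-type array 1 (-0.0060) was left out.

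Orai1, the channel subunit that SPCA2 activates, read 5.79, 5.66 and 5.82 in knockout cells, against 5.83, 5.94 and 5.78 in wild-type cells. The groups overlapped, and the log2 fold change was -0.09 (95% interval -0.26 to 0.07, adjusted p = 0.711). Channel activity was not measured.

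**Figure D2:**
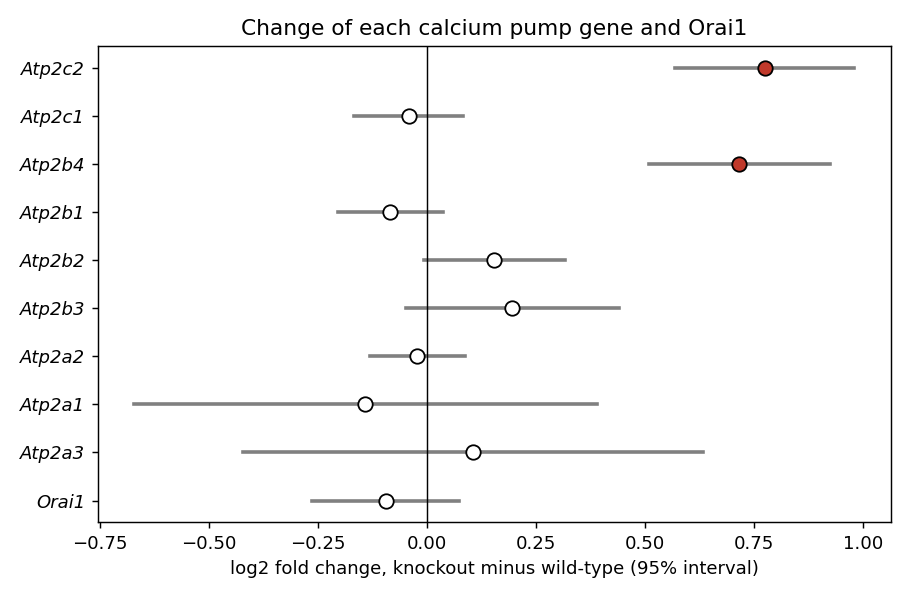
Log2 fold change, knockout minus wild-type (horizontal axis), of each calcium pump gene and Orai1, with its 95% interval from limma as a grey bar. Filled points, Atp2c2 at 0.77 and Atp2b4 at 0.72, passed the adjusted threshold of 0.05, and open points did not.

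The difference between paralogs was taken on each array, which removes anything the array does alike to both genes. Only its change between groups has a meaning, since the probe sets of different genes share no scale. Atp2c2 minus Atp2c1 was -3.66, -3.50 and -3.46 on knockout arrays, against -4.30, -4.28 and -4.48 on wild-type arrays, a change of 0.82. Atp2b4 minus Atp2b1 was -4.01, -3.90 and -4.19 on knockout arrays, against -4.83, -4.76 and -4.92 on wild-type arrays, a change of 0.80. In both pairs every knockout array lay above every wild-type array, with gaps of 0.62 and 0.57 log2 units. Atp2c2 minus Orai1 changed by 0.87 and Atp2b4 minus Atp2a2 by 0.74, also without overlap. Each of these 4 differences had an exact two-sided permutation p of 0.10, the smallest that 3 against 3 arrays allow, and 0.125 after Benjamini-Hochberg adjustment over the 5 pairs compared. In the remaining pair, Atp2c2 minus Atp2b4, the groups overlapped with a change of 0.06 (exact permutation p = 0.80, adjusted 0.80). The pairs were chosen after the values were seen. In the 4 separated pairs a gene that already differed without overlap was set against one that changed little. Their p-values therefore repeat the separation of Atp2c2 and Atp2b4 and are no further evidence.

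**Figure D3:**
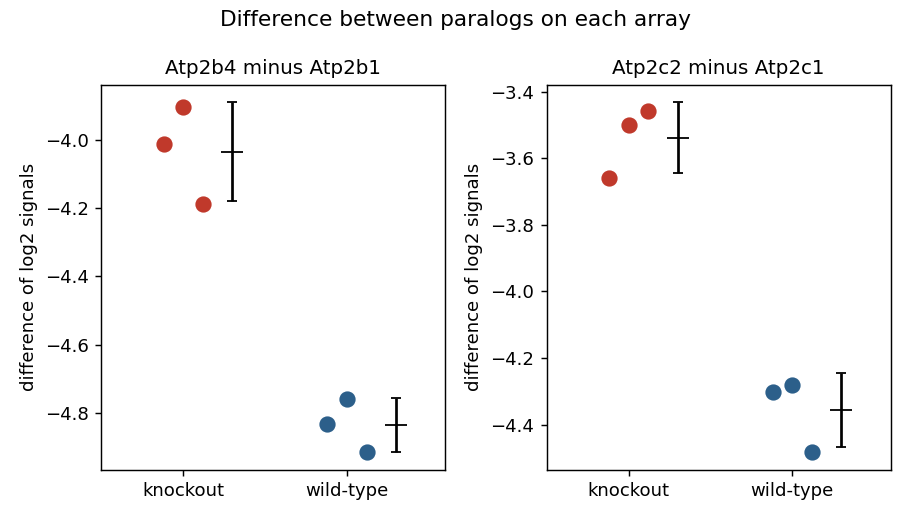
Difference of log2 signals between paralogs (vertical axis) on each knockout (red) and wild-type (blue) array, with group mean and SD in black. For Atp2b4 minus Atp2b1 and for Atp2c2 minus Atp2c1 the knockout arrays lie above the wild-type arrays by at least 0.57 log2 units.

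In most fits with 1 array left out neither gene passed the threshold. Atp2c2 had an adjusted p of 0.0614 to 0.119 with any 1 array left out, its log2 fold change staying between 0.69 and 0.84. Atp2b4 kept its call without knockout array 3 (adjusted p = 0.0396) and had an adjusted p of 0.115 to 0.150 without any other array, with log2 fold changes of 0.66 to 0.80.

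**Figure D4:**
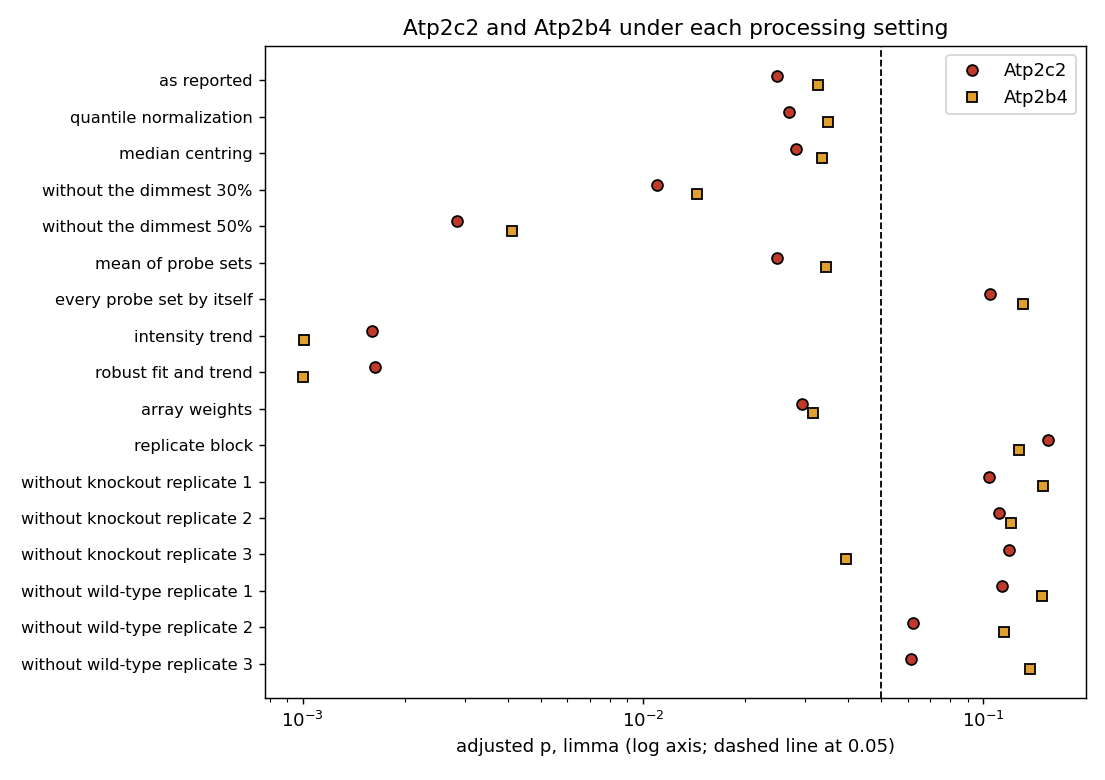
Adjusted p from limma (horizontal log axis) of Atp2c2 (red circles) and Atp2b4 (yellow squares) as reported and under each alternative setting, with a dashed line at 0.05. Both lie left of the line with either normalization, either filter on dim genes, the mean of probe sets, an intensity trend or array weights, and right of it for every probe set by itself, the replicate block and most single arrays left out.

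The other genes of calcium handling were read from 9 lists, of which 96 genes were measured. Of these 1 gene rose, Csn3, and none fell (limma, adjusted over all genes), 14 had an unadjusted p under 0.05, and the median log2 fold change was -0.01. Unadjusted p under 0.05 was met by 10.2% of all genes. Csn3 encodes kappa-casein, the casein that stabilises the micelles of milk, and stood in the list of mammary calcium and secretory differentiation genes. It read 3.95, 3.83 and 3.89 in knockout cells, against 3.05, 3.16 and 2.77 in wild-type cells (log2 fold change 0.90, SE 0.10, adjusted p = 0.0291), and lost its call with any 1 array left out. Its probe set was above 42.1% of genes in knockout cells and 23.6% in wild-type cells. Of the 12 measured genes of that list 1 rose, the median was -0.0027, and Stat5b, a transcription factor of lactation, had -0.08. The milk protein genes Csn1s1 (0.11), Csn2 (-0.12), Wap (0.00014) and Lalba (-0.02) had overlapping groups. They were dim, above 2.0%, 10.9%, 33.1% and 17.8% of genes.

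Store-operated entry refills the endoplasmic reticulum through Orai channels that Stim proteins open. None of its 9 measured genes passed the test, 2 had an unadjusted p under 0.05, and the median was -0.04. The calcium sensor gene Stim1 read 6.93, 6.92 and 6.89 in knockout cells, against 7.07, 7.04 and 7.15 in wild-type cells, without overlap (log2 fold change -0.17, SE 0.05, adjusted p = 0.322). Orai3, a paralog of Orai1, had -0.16 (adjusted p = 0.448). The paralog Orai2 went the other way, at 0.12 without overlap (adjusted p = 0.509). Among 8 genes of calcium release and leak channels of the endoplasmic reticulum none passed and none had an unadjusted p under 0.05, with a median of 0.03, the ryanodine receptor gene Ryr2 at 0.16 and the leak channel gene Tmco1 at -0.07.

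Of 9 regulators and subunits of the pumps none passed and none had an unadjusted p under 0.05, with a median of -0.02. S100a1, a calcium-binding partner of SERCA2, had a log2 fold change of -0.08, and Tmem165, a Golgi membrane protein of calcium and manganese balance, -0.06. Bsg (basigin) and Nptn (neuroplastin), the glycoprotein subunits that PMCA pumps need, were named after their values were seen and had log2 fold changes of 0.05 and -0.03. Among 15 calcium-binding proteins of the endoplasmic reticulum and Golgi none passed, 4 had an unadjusted p under 0.05, and the median was -0.06. Cgref1, an EF-hand protein, had -0.23 (SE 0.06, adjusted p = 0.261), and Calr, the calcium-storing chaperone calreticulin, -0.16 (SE 0.05, adjusted p = 0.323).

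The remaining routes gave no call either. The medians were 0.0018 for sodium-calcium exchangers, -0.03 for mitochondrial uptake, 0.03 for voltage-gated channels and -0.06 for calcineurin and NFAT. Of 8 sodium-calcium exchangers 2 had an unadjusted p under 0.05. Slc24a3 had a log2 fold change of -0.22 (adjusted p = 0.231) and Slc8a1, the exchanger NCX1 best known from heart, 0.30 (adjusted p = 0.259) at a dim signal above 11.2% of genes. Of 9 genes of mitochondrial calcium uptake none had an unadjusted p under 0.05, with the uniporter regulators Micu2 at -0.09 and Smdt1 at 0.07. Of 17 voltage-gated calcium channel genes 2 did, the auxiliary subunits Cacnb2 and Cacna2d1. Cacnb2 read 4.66, 4.83 and 4.70 in knockout cells, against 4.32, 4.25 and 4.35 in wild-type cells, without overlap (log2 fold change 0.42, SE 0.06, adjusted p = 0.0668), and Cacna2d1 had -0.16. Of 9 genes of calcineurin and NFAT, the calcium-driven phosphatase and its transcription factors, 3 had an unadjusted p under 0.05. These were Nfatc2 at -0.16, Ppp3ca at -0.13 and, in the other direction, Nfatc1 at 0.14.

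The P-type ATPases that carry other substrates are the nearest relatives of the pumps. None of the 24 measured passed the test, 3 had an unadjusted p under 0.05, and the median log2 fold change was 0.02. The largest change was that of Atp8b1, a lipid flippase, which read 5.07, 5.41 and 5.11 in knockout cells, against 4.69, 4.67 and 4.42 in wild-type cells. Its groups did not overlap (log2 fold change 0.60, SE 0.12, adjusted p = 0.124). Atp8b4, a dim relative, had 0.24 (adjusted p = 0.237).

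**Figure D5:**
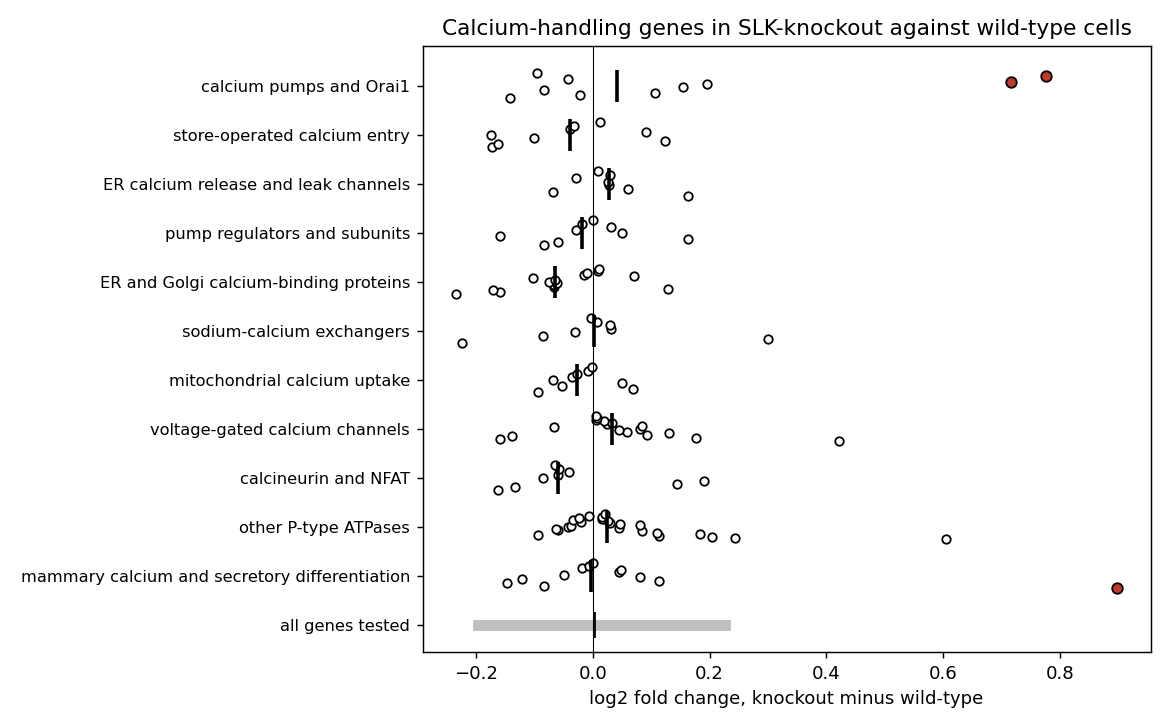
Log2 fold change, knockout minus wild-type (horizontal axis), of every measured gene of the calcium pumps, the calcium lists and the other P-type ATPases, with list medians as black bars and genes past the adjusted threshold of 0.05 filled red. The grey bar gives the range from -0.20 to 0.23 that holds the genes between the 5th and 95th percentile of all genes tested, and Atp2c2, Atp2b4 and Csn3 are the filled points, all to its right.

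The genes most like Atp2c2 over the 6 arrays by Pearson's r were Oas3 (0.993), Mboat2 (0.993), Parvb (0.992), Syt7 (0.992) and Ik (0.992). The arrays form 2 genotypes in which Atp2c2 does not overlap, so r mostly repeats the difference between genotypes and is given as a description. Oas3, an interferon-induced gene, and Parvb, an adaptor of integrin adhesions, were among the genes that rose, with log2 fold changes of 0.41 and 1.05, while Mboat2, Syt7 and Ik did not pass the test (0.44, 0.38 and 0.09).

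Markers of cell types were summed per array on the linear scale and are given as log2. Luminal markers (8 of 8 measured) summed to 11.87 to 11.88 in knockout cells and 11.81 to 11.84 in wild-type cells, with Cdh1 lower by the test. That sum is carried by the bright keratins Krt8 and Krt18. Gene by gene, 4 of the 8 markers had a lower mean in knockout cells (Cdh1, Epcam, Gata3 and Esr1), each without overlap. The other 4 had a higher mean. Their groups did not overlap for Krt8 (log2 fold change 0.15), Krt18 (0.14) and Krt19 (0.08), and overlapped for Foxa1 (0.01). The median log2 fold change of the list was -0.09. In all, 7 of the 8 had groups without overlap, against 16.9% of all genes tested. Basal and myoepithelial markers (6 of 7 measured) summed to 8.98 to 9.07 in knockout cells and 9.30 to 9.33 in wild-type cells. By the test Krt14 was lower and Mme higher. The brightest of the 6 were Krt14 (log2 fold change -0.66) and Acta2 (-0.47). Gene by gene 3 had a higher mean in knockout cells and 3 a lower one, with a median of -0.04. Fibroblast markers (7 of 7) summed to 9.19 to 9.21 in knockout cells and 9.29 to 9.36 in wild-type cells, with Pdgfrb lower. Taken singly, 5 of these 7 genes averaged lower on the knockout arrays and 2 averaged higher (median -0.19). The 2 were Dcn (log2 fold change 0.43) and Pdgfra (0.10), each without overlap. Of the 5 lower genes, Pdgfrb (-0.67), Col1a1 (-0.33), Col1a2 (-0.19) and Col3a1 (-0.19) were also without overlap, while Lum (-0.15) overlapped. So 6 of the 7 had groups without overlap, against 16.9% of all genes tested. The groups were apart in each of these lists. They were also apart, and higher in knockout cells, in lists without any call. Skeletal muscle markers (7 of 7) summed to 7.39 to 7.50 in knockout cells and 7.23 to 7.33 in wild-type cells. Neuron markers (5 of 5) summed to 6.70 to 6.87 in knockout cells and 6.52 to 6.61 in wild-type cells. Of these 5 markers 3 had a higher mean in knockout cells, with Syn1 at 0.42, and 2 a lower one. Leukocyte markers (5 of 6) summed to 5.29 to 5.41 in knockout cells and 5.16 to 5.26 in wild-type cells, with Ptprc dimmer than all but 9.8% of genes. Endothelial markers (5 of 5) overlapped, at 5.96 to 6.19 in knockout cells and 6.05 to 6.25 in wild-type cells. No array value is a true 0, and the part of these markers in the rise of Atp2c2 and Atp2b4 was not tested.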

How the data were processed

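Total RNA of 6 samples was biotin-labelled and measured on one-colour arrays. The authors deposited 1 table of log2 values for 41345 probe sets, made with Affymetrix Expression Console 1.4.1.46, per the submitters' processing notes. The labels do not state how background, normalization and summarisation were handled, nor the base of the logarithm. The values reach 12.4, more than the natural log of the largest 16-bit reading (11.1), so log2 was taken. Such values compress the changes of dim genes, and the number of arrays limits the precision.

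Of the probe sets, 23521 had 1 symbol in the platform annotation, 1814 had several and 16010 were not listed there. The brightest single-symbol probe set of each gene gave 22180 genes. Samples were grouped by title. The knockout and wild-type groups were fitted in limma 3.58.1 under R 4.3.3 (functions lmFit and eBayes, no covariate, no filter on dim genes, two-sided, Benjamini-Hochberg adjustment over all genes, threshold 0.05). Standard errors and unadjusted 95% intervals are limma's. The fit was tested on simulated data. With 1 probe set per gene, splice variants were not told apart.

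The members and the lists were chosen with earlier results of these data known. The genes named by rule were the 10 members, Slk, in each calcium list the genes past the threshold and those with the smallest p until 2 were named, the 5 genes most like the member with the smallest p, and any called cell type marker. Any other calcium list gene or cell type marker named in the text was picked after the values were seen. The alternatives tried were median centring, quantile normalization, a filter that drops the dimmest 30% or 50%, averaging a gene's probe sets, testing each probe set separately, an intensity trend (also with robust estimation), weights per array, a replicate block, and leaving out each array.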

Additional observations from a re-analysis of the deposited data

How the results depend on the processing

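Under the 16 alternatives the log2 fold changes were 0.69 to 0.84 for Atp2c2 and 0.66 to 0.80 for Atp2b4. Their stable sign is no test of robustness. The filters, the handling of probe sets, the trends and the replicate block leave the fold change of these genes as it is. Leaving out an array cannot turn the sign of a gene whose groups do not overlap. Adjusted p lay between 0.0016 and 0.155 for Atp2c2, which kept its call in 8, and between 0.0010 and 0.150 for Atp2b4, which kept it in 9. The count of called members was 2 in the same 8 settings. It was 0 with every probe set by itself (adjusted p 0.105 for Atp2c2 and 0.131 for Atp2b4), where more features are tested, 0 with the replicate block (0.155 and 0.128), and 0 to 1 with 1 array left out. Among the members without a call, only Atp2a3 turned sign, to -0.0756 without knockout array 1 and -0.0060 without wild-type array 1, with 0.333 without knockout array 3 as its highest value.

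The number of genes called was 97 as reported (72 higher, 25 lower). It was 206 without the dimmest 30% of genes and 341 without the dimmest 50%, 441 with an intensity trend and 443 with a robust fit and trend. It was 29 with every probe set by itself, 6 with the replicate block, and 16 to 28 with 1 array left out, where fewer samples enter. The cause of these changes was not tested. In the calcium lists, 1 gene was called as reported. There were 2 without the dimmest 30% (Csn3 and Cacnb2), 1 without the dimmest 50% (Cacnb2, where Csn3 is among the genes left out), 4 with the trend and 4 with the robust fit (Csn3, Cacnb2, Calr and Cgref1), 0 with every probe set by itself, 0 with the replicate block and 0 with any array left out. Of the other P-type ATPases 1, Atp8b1, was called without the dimmest 50%, 1 with the trend and 1 with the robust fit. Same-numbered samples did not deviate together (correlations of 0.04, 0.02 and -0.07 for numbers 1 to 3), so the numbers were not treated as pairs and the replicate block is only an alternative.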

Other observations

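Annotated promoter windows of the other members differed widely in CG content. Orai1 had 36 CG dinucleotides, Atp2a3 had 25 and Atp2a1 had 4. Atp2c1, the paralog of the Golgi pump gene that rose, had windows with 8 and 36, and the lactation pump Atp2b2 had windows with 27, 8 and 12. The median window of the table held 7. The Atp2a1 window, the Orai1 window and the first Atp2c1 window each held 1 CAGCTG, an E-box form found in 16.3% of all windows on either strand.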
